A study of Mus musculus with 12 samples.

Results

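The growth hormone and IGF1 axis was followed through 10 genes in primary mouse hepatocytes, the parenchymal cells of the liver taken into culture: Ghr, Prlr, Stat5b, Socs2, Cish, Igf1, Igfals, Igfbp1, Igfbp2 and Igfbp4. They were taken as listed, by symbol and with no threshold on their values, and each matched 1 of the 55414 gene rows of the count table. All 10 passed the filter on low counts that left 14919 genes for testing. RNA was sequenced from Hnf4a KO hepatocytes treated with MJ041, Hnf4a KO hepatocytes given DMSO vehicle, WT hepatocytes treated with MJ041 and WT hepatocytes given DMSO vehicle, 3 libraries for each of the 4 groups. The targeted gene encodes the nuclear receptor HNF4A, a main regulator of hepatocyte genes, and MJ041 is a compound known only by this code, which the series title calls a candidate ligand. The labels used here give no strain, sex, age, dose, duration or method of deletion, and do not say whether the libraries of a group came from separate animals, so p-values measure the spread between these libraries, which may be technical.

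Growth hormone binds its receptor GHR on the hepatocyte, the receptor-bound kinase JAK2 phosphorylates STAT5B, and STAT5B enters the nucleus and switches on Igf1 and its own inhibitors Cish and Socs2. The liver is the main source of circulating IGF1, which travels in a complex with the acid-labile subunit (encoded by Igfals) and an IGF-binding protein. The IGF-binding proteins differ in control: Igfbp1 is induced by FOXO1 when insulin is low, and Igfbp2 is high in fetal liver. In mouse liver STAT5B also sets the sex-biased expression of cytochrome P450, sulfotransferase and major urinary protein genes, through the pulse pattern of pituitary growth hormone.

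Library totals lay between 16740761 and 17902832 counts. Hnf4a had 61.1, 67.8 and 66.4 CPM (counts scaled to library size by edgeR's TMM method) in KO cells with vehicle, against 121, 137 and 112 CPM in WT cells with vehicle, a log2 fold change of -0.92 ± 0.10 (SE). With MJ041 Hnf4a had 59.9, 76.0 and 66.7 CPM in KO cells and 166, 178 and 142 CPM in WT cells (log2 fold change -1.26). MJ041 against vehicle in WT cells gave Hnf4a a log2 fold change of 0.39, without overlap and not called. Which exons were removed is not given in the labels, and reads from outside the deleted part check nothing. The summed level of 10 hepatocyte markers was 25092 to 29269 CPM in KO cells with vehicle and 53789 to 57873 CPM in WT cells with vehicle, so the labelled cell type was present in all libraries. Alb was most of these sums, with means of 18885 CPM in KO and 44806 CPM in WT. With vehicle 7 of the 10 were called lower in KO and 1 higher, beside 26.9% and 27.5% of all tested genes. Apoa1 averaged 2077 CPM in KO and 1044 CPM in WT. Fgb (1810 and 1665 CPM) and Cps1 (111 and 106 CPM) overlapped. In a bulk sample, fewer cells of a type and less RNA per cell cannot be told apart. MJ041-treated WT replicates 1 and 2 stood apart in markers of other liver cells: 17 stellate markers summed to 102, 111 and 164 CPM in the 3 MJ041-treated WT libraries, against 185, 160 and 197 CPM in WT with vehicle. The 18 Kupffer markers summed to 197, 246 and 416 CPM with MJ041, against 340, 274 and 557 CPM with vehicle, and the 21 endothelial markers to 194, 210 and 361 CPM with MJ041, against 341, 307 and 492 CPM with vehicle. The 10 cholangiocyte markers summed to 170, 177 and 299 CPM with MJ041, against 561, 326 and 466 CPM with vehicle. Of these sums Spp1 alone had 80.1, 89.0 and 212 CPM with MJ041, against 474, 238 and 375 CPM with vehicle. Across the 6 KO libraries these sums were 166 to 225 CPM (stellate), 492 to 548 CPM (Kupffer), 289 to 443 CPM (endothelial) and 317 to 540.1 CPM (cholangiocyte). Spp1 had 127 to 345 CPM in the KO libraries. With vehicle, 4 of the 8 tested cholangiocyte markers were called higher in KO than in WT and 2 lower. Over all tested genes 27.5% were called higher and 26.9% lower. Among the higher ones, Krt19 averaged 31.0 CPM in KO and 3.20 CPM in WT, and Bicc1 90.6 and 14.4 CPM. Sox9 and Ehf went the other way. Sox9 averaged 28.1 CPM in KO and 46.6 CPM in WT, and Ehf 0.419 and 1.99 CPM. The Kupffer marker Cd163 had 0 counts in every library of KO with MJ041, WT with MJ041 and WT with vehicle, and 5 counts over the KO libraries with vehicle.

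The order of the genes by level differed between the genotypes. Per kilobase of exon, Igfbp2 had the highest level in KO cells with vehicle, 375 ± 13.5 CPM per kb (SD, n = 3), and Igfbp1 followed at 44.7 ± 14.2 CPM per kb. Igfbp4 (14.6), Stat5b (10.96), Igf1 (10.9), Ghr (6.28), Igfals (5.87), Socs2 (2.36), Cish (2.14) and Prlr (1.67 CPM per kb) came next, and the library ranges overlapped between Stat5b and Igf1, Ghr and Igfals, and Socs2 and Cish. In WT cells with vehicle Igfbp1 (52.2 ± 17.9 CPM per kb) and Igfbp2 (44.2 ± 5.04 CPM per kb) overlapped at the top and Igf1 was next at 27.6 ± 1.52 CPM per kb. Igfbp4 (19.3), Stat5b (12.1), Ghr (10.6), Cish (8.80), Prlr (4.38), Igfals (2.56) and Socs2 (2.50 CPM per kb) followed in WT, and of these neighbours Igfals and Socs2 overlapped. Cish thus stood above Prlr and Socs2 in WT cells but overlapped Socs2 in KO cells.

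**Figure D1:**
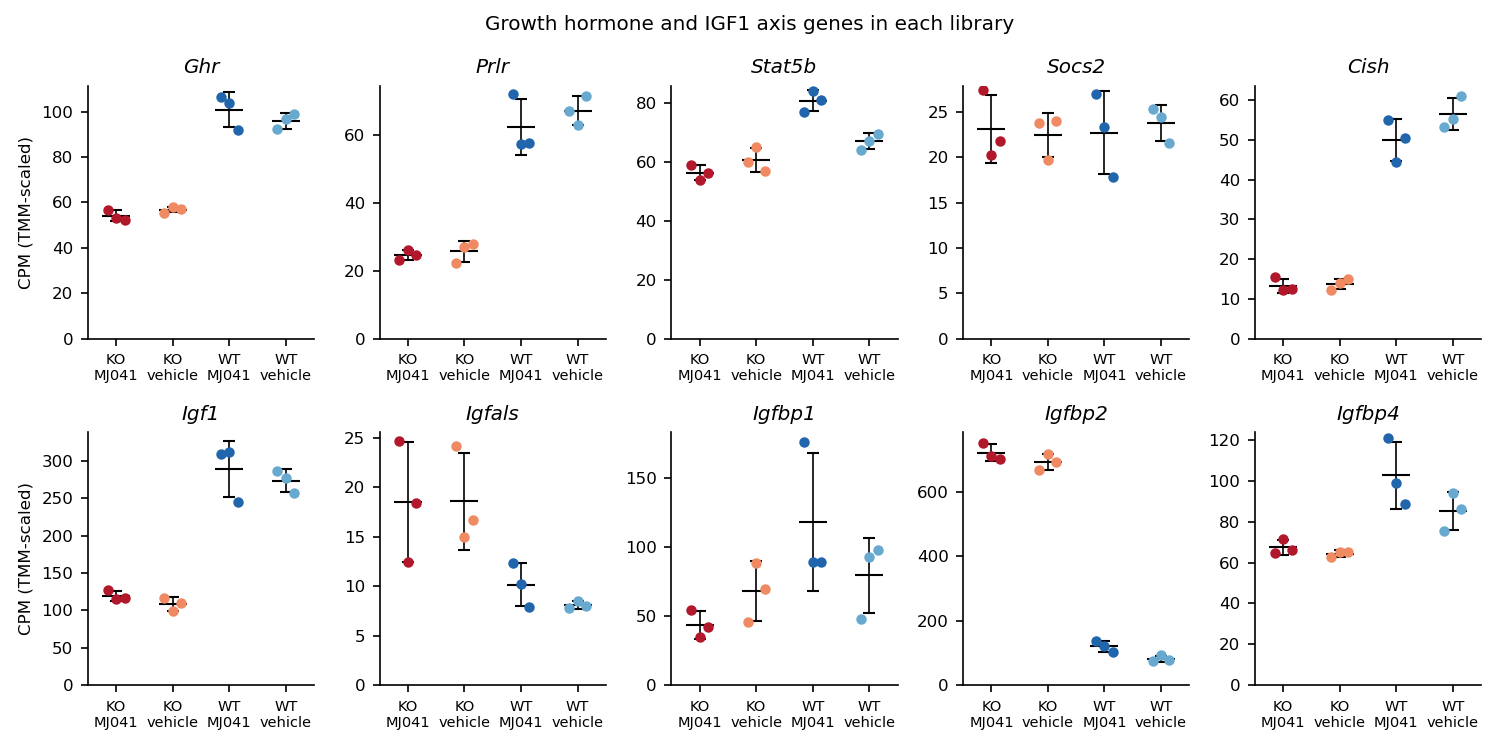
TMM-scaled CPM of the 10 genes in each of the 12 libraries (points), with the group mean and SD (bars), in KO and WT cells with MJ041 or vehicle. Igfbp2 lies at 667 to 751 CPM in the 6 KO libraries and at 75.6 to 138 CPM in the 6 WT libraries, while Socs2 overlaps in all 4 groups.

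The promoter windows of 5 of these genes are shown because they carry, or in Igf1 lack, the short motifs through which the axis and HNF4A are known to act. RefSeq windows (build GRCm38.p6, 250 bases before and 50 after a transcript start) were held for 9 of the 10 genes, in 16 windows, with Socs2 not matched. Capitals mark matches to TTCNNNGAA, the core bound by STAT5, to CAAAGTC, the first 7 letters of an element bound by HNF4A, or to CAAAACA, the core of the insulin response element bound by FOXO1. Both strands were searched, and no matches overlap one another. All sequences run 5′ to 3′ on the plus strand, which is the strand of each gene shown. The windows are Cish chr9:107296409-107296708, the second Igfals window chr17:24877981-24878280, Igfbp1 chr11:7197537-7197836, the first Igfbp2 window chr1:72824230-72824529 and Igf1 chr10:87860861-87861160.
Cish: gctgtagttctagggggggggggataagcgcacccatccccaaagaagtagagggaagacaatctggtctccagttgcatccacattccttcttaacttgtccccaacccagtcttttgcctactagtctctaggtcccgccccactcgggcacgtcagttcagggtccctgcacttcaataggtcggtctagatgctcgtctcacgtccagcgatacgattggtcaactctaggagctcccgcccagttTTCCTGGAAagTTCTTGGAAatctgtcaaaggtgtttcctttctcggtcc
Igfals: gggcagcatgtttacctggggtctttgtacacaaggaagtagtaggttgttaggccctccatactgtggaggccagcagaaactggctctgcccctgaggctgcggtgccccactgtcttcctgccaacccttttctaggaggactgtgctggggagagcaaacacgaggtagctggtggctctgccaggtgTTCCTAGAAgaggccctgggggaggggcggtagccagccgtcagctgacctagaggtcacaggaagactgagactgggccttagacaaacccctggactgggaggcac
Igfbp1: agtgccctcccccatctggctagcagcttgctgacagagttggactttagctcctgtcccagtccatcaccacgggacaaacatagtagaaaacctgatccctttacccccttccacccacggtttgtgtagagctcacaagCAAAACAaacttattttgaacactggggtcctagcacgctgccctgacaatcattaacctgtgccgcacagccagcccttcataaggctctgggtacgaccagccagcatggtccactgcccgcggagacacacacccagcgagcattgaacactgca
Igfbp2: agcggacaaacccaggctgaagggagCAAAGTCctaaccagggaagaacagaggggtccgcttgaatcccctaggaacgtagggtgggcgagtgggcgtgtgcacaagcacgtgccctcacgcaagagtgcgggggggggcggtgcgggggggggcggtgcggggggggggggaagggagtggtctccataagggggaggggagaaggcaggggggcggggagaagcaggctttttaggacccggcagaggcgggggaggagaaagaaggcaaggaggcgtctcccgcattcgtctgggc
Igf1: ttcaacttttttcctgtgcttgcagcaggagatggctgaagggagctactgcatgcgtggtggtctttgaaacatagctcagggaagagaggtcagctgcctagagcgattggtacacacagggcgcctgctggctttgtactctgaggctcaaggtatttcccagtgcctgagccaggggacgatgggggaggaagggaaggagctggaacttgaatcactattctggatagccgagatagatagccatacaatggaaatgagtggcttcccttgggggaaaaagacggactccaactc
TTCNNNGAA was found in 4 of the 16 windows and in 8.30% of all 32851 windows. Cish held 2 copies, TTCCTGGAA and TTCTTGGAA, with 250 and 261 bases of the window before them, and 0.457% of all windows held 2 or more. The second Igfals window held TTCCTAGAA, the first Igfals window TTCTCAGAA and a Prlr window TTCTAGGAA. CAAAGTC, present in 4.44% of all windows, was found in Igfbp2 and on the opposite strand of the third Igfals window. CAAAACA, present in 6.28% of all windows, was found in Igfbp1 and on the opposite strand of a Prlr window. A match is a description of the letters and not a binding site, and the Igf1, Ghr, Stat5b and Igfbp4 windows held none of the 3.

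The genotypes were compared first in cells with vehicle. KO hepatocytes had less mRNA of both receptors, of the feedback inhibitor Cish, of the hormone Igf1 and of Igfbp4, and more of Igfals and Igfbp2. Of the 10 genes, 2 rose and 5 fell at an adjusted p below 0.05 (edgeR quasi-likelihood test with Benjamini-Hochberg adjustment over 14919 genes). Over all tested genes 54.5% were called, 27.5% higher and 26.9% lower in KO, and 7 of 10 is not read as a result particular to these genes. The median log2 fold change of the 10 genes was -0.31, against -0.0020 over all genes.

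Ghr (ENSMUSG00000055737), the growth hormone receptor, had 55.5, 57.9 and 57.1 CPM in KO cells with vehicle, against 92.3, 96.6 and 99.1 CPM in WT cells with vehicle. Every KO library was below every WT library, a 1.69-fold lower level (log2 fold change -0.76 ± 0.06, SE; adjusted p = 6.19e-07). Prlr (ENSMUSG00000005268), the prolactin receptor, a relative of GHR that also signals through STAT5, had 22.2, 27.0 and 27.8 CPM in KO cells and 67.2, 62.9 and 71.4 CPM in WT cells. The groups did not overlap and Prlr was 2.61-fold lower in KO (log2 fold change -1.39 ± 0.10; adjusted p = 3.06e-07).

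Stat5b (ENSMUSG00000020919), the transcription factor at the end of the receptor pathway, had 60.0, 64.9 and 57.1 CPM in KO cells and 64.2, 67.2 and 69.7 CPM in WT cells. These ranges overlapped and the difference did not pass the test with all libraries in the fit (log2 fold change -0.14 ± 0.06; adjusted p = 0.0663). Stat5b did pass as lower in 5 of the 12 fits that each left out 1 library, with adjusted p from 0.0263 to 0.0403: those without KO MJ041 replicate 1, 2 or 3, KO vehicle replicate 2 or WT MJ041 replicate 2. The feedback inhibitors in the set are Cish and Socs2, both of the SOCS family. Cish (ENSMUSG00000032578), whose product blocks STAT5 docking on the receptor, had 12.3, 14.01 and 14.9 CPM in KO cells, against 53.3, 55.2 and 61.1 CPM in WT cells. It had the largest fall of the 10 genes, 4.11-fold (log2 fold change -2.04 ± 0.11; adjusted p = 1.54e-08). The predicted genes Gm17040 and Gm17041 overlap Cish on the opposite strand, with at most 8 counts and 1 count in a library. Socs2 (ENSMUSG00000020027), which restrains growth hormone receptor signalling, had 23.8, 19.7 and 24.0 CPM in KO cells and 25.4, 24.5 and 21.6 CPM in WT cells. The groups overlapped, with a log2 fold change of -0.08 and a 95% interval of -0.40 to 0.24 (adjusted p = 0.665), an interval that does not reach the fall of Cish. That difference between the 2 genes was not itself tested.

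Igf1 (ENSMUSG00000020053), the growth hormone-induced hormone, had 117, 98.6 and 109.6 CPM in KO cells with vehicle, against 287, 277 and 257 CPM in WT cells with vehicle. All KO libraries were below all WT libraries, 2.52-fold lower (log2 fold change -1.34 ± 0.09; adjusted p = 1.78e-07). Igfals (ENSMUSG00000046070), whose protein stabilises IGF1 in blood, moved the other way, with 24.2, 14.9 and 16.7 CPM in KO cells and 7.79, 8.54 and 7.95 CPM in WT cells. It was 2.30-fold higher in KO without overlap (log2 fold change 1.20 ± 0.24; adjusted p = 0.00107), and the KO libraries spread more widely than the WT libraries (SD 4.90 CPM in KO, 0.393 CPM in WT).

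Among the IGF-binding proteins, Igfbp2 (ENSMUSG00000039323) had the largest change of the 10 genes in either direction. It had 667, 717 and 693 CPM in KO cells and 75.6, 92.4 and 77.0 CPM in WT cells. The lowest KO library was thus far above the highest WT library, and Igfbp2 was 8.48-fold higher in KO (log2 fold change 3.08 ± 0.10; adjusted p = 1.66e-10). Igfbp4 (ENSMUSG00000017493), a binding protein that restrains IGF action, had 62.6, 65.2 and 65.3 CPM in KO cells, against 75.3, 94.1 and 86.4 CPM in WT cells. The ranges did not overlap and the fall was 1.32-fold (log2 fold change -0.41 ± 0.10; adjusted p = 0.00491). Igfbp1 (ENSMUSG00000020429), the insulin- and FOXO1-regulated binding protein, had 45.6, 88.9 and 69.8 CPM in KO cells and 48.2, 92.6 and 97.8 CPM in WT cells. Igfbp1 varied more within groups than between them (68.1 ± 21.7 CPM in KO, 79.5 ± 27.2 CPM in WT, SD). No difference was detected (log2 fold change -0.22, 95% interval -0.92 to 0.48; adjusted p = 0.583).

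The make-up of IGF-binding protein mRNA differed accordingly. Of the summed CPM per kb of Igfbp1 to Igfbp7, Igfbp2 made up 84.7%, 79.6% and 81.7% in KO cells with vehicle, against 34.4%, 31.9% and 26.0% in WT cells with vehicle. Igfbp1 made up 7.02%, 11.96% and 9.97% in KO cells, against 26.6%, 38.7% and 40.0% in WT cells. Igfbp7 made up 4.59%, 4.97% and 4.69% in KO cells, against 21.2%, 13.9% and 18.7% in WT cells. In WT cells with MJ041 Igfbp7 made up 4.04%, 5.60% and 13.5%, less in replicates 1 and 2, which were low in markers of other liver cells. The part of other cells in these shares was not tested. Each share depends on the other genes in the sum, and the shares were not tested.

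**Figure D2:**
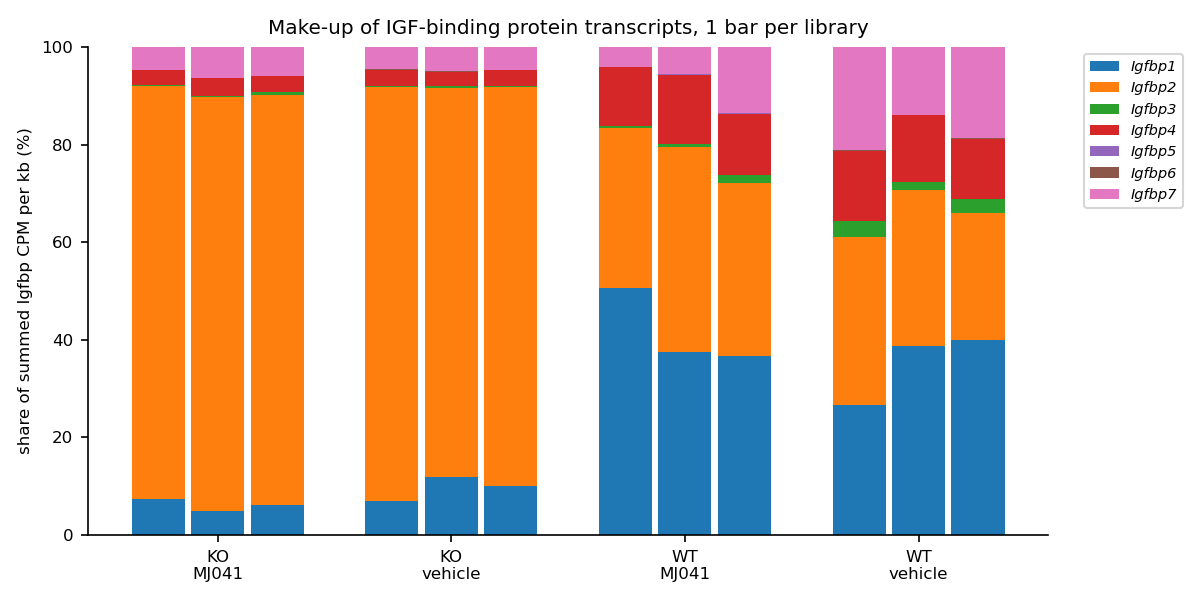
Share of each Igfbp transcript (percent of the summed CPM per kb of Igfbp1 to Igfbp7) in each library, 1 bar per library, with KO left of WT and MJ041 left of vehicle. Igfbp2 fills 79.6% to 84.7% of each KO bar and 26.0% to 42.0% of each WT bar.

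The same genotype comparison in MJ041-treated cells called 2 genes higher and 7 lower of the 10, beside 54.4% of all tested genes (26.8% higher, 27.6% lower). The median log2 fold change of the 10 genes was -0.75, against 0.02 over all genes. Igfbp2 had 751, 713 and 701 CPM in KO cells with MJ041, against 138, 121 and 104 CPM in WT cells with MJ041, a 5.96-fold higher level (log2 fold change 2.58 ± 0.10; edgeR adjusted p = 7.08e-10). Igf1 had 127, 115 and 117 CPM in KO cells and 309.7, 312 and 246 CPM in WT cells (log2 fold change -1.27; adjusted p = 2.44e-07). Cish fell by 1.91, Prlr by 1.34, Ghr by 0.90 and Igfbp4 by 0.61 on the log2 scale, and Igfals was higher by 0.87. No log2 fold change of these 9 genes turned sign without both marker-low WT libraries. That setting was chosen after seeing the data and leaves 1 treated WT library, assumed to vary like the other groups. With all libraries, some markers of other cell types differed between these groups as well. The stellate sums were 184 to 208 CPM in KO cells with MJ041 and 102 to 164 CPM in WT cells with MJ041. The Kupffer sums were 507 to 539.8 CPM in KO and 197 to 416 CPM in WT. The cholangiocyte sums were 317 to 540.1 CPM in KO and 170 to 299 CPM in WT. Each of these was without overlap, but the endothelial sums overlapped (326 to 395 CPM in KO, 194 to 361 CPM in WT). In the Kupffer sums Mpeg1 alone had 277, 284 and 282 CPM in KO, against 53.3, 68.2 and 115 CPM in WT. In the cholangiocyte sums Spp1 had 127, 345 and 222 CPM in KO, against 80.1, 89.0 and 212 CPM in WT. Of the tested markers 7 of 15 stellate, 5 of 20 endothelial, 3 of 17 Kupffer and 4 of 8 cholangiocyte markers were called higher in KO. Called lower were 1 Kupffer marker (Cd68, log2 fold change -0.75) and 1 cholangiocyte marker, and no stellate or endothelial marker. The endothelial and Kupffer counts of higher markers did not exceed the 26.8% of all tested genes called higher. With the mean of the 52 tested stellate, Kupffer and endothelial markers in the fit, the same 9 genes and Socs2 were called.

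Stat5b and Igfbp1 were called in MJ041-treated cells and not in vehicle-treated cells. Stat5b had 59.0, 53.9 and 56.2 CPM in KO cells with MJ041, against 77.1, 84.2 and 81.0 CPM in WT cells with MJ041 (log2 fold change -0.52 ± 0.06; adjusted p = 1.51e-05). Igfbp1 had 54.7, 34.7 and 42.0 CPM in KO cells and 176, 89.5 and 89.2 CPM in WT cells, a 2.701-fold lower level in KO (log2 fold change -1.43 ± 0.33; adjusted p = 0.0025). MJ041-treated WT replicate 1 was the high Igfbp1 library. Socs2 had 27.4, 20.3 and 21.7 CPM in KO cells and 26.9, 23.3 and 17.9 CPM in WT cells, which overlapped (log2 fold change 0.03; adjusted p = 0.894). With the mean log2 CPM of 52 non-hepatocyte markers in the fit, Socs2 was called higher in KO as well (log2 fold change 0.38; adjusted p = 0.0205).

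**Figure D3:**
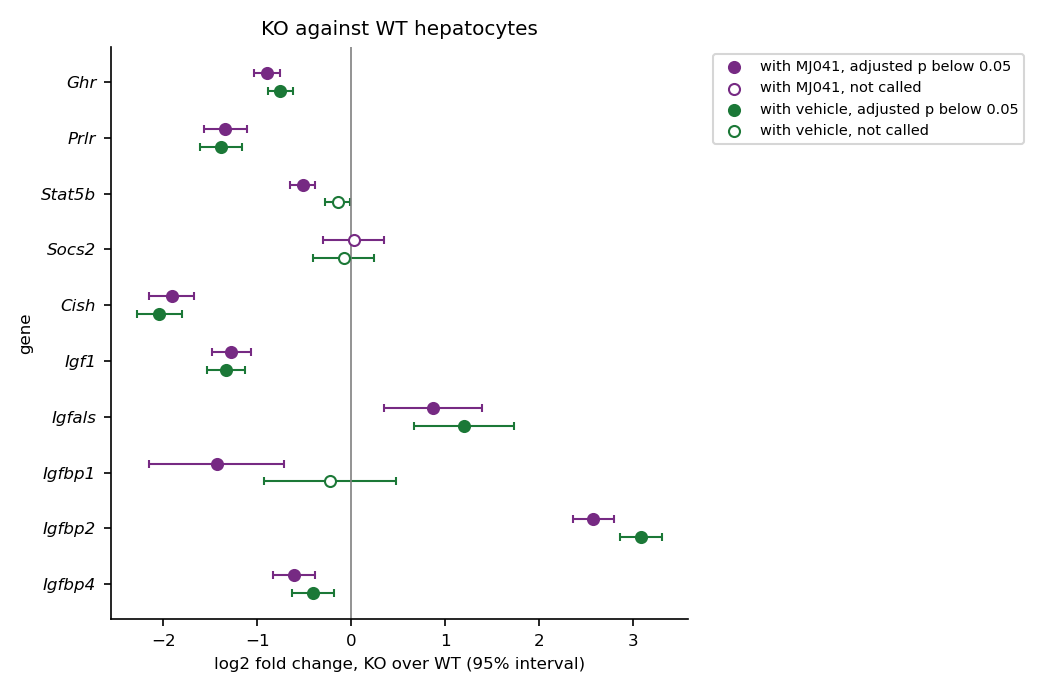
Log2 fold change of KO over WT for each gene, with 95% intervals, in cells with MJ041 (purple) and with vehicle (green). Filled points have an adjusted p below 0.05. Igfbp2 and Igfals are the genes called higher, and Socs2 lies at -0.08 with vehicle and 0.03 with MJ041.

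The genes around the axis were read in lists taken from general knowledge of the pathway, but chosen with earlier results of these data known. Their counts with vehicle, here and below, stand beside 54.5% of all tested genes called (27.5% higher, 26.9% lower in KO). Counts near that share are not read as results particular to these lists. Of the 14 receptor signalling genes reported here, 7 fell in KO cells with vehicle and 7 did not pass, with a median log2 fold change of -0.28. Stat3, a STAT shared with interleukin-6 signalling, averaged 194 ± 3.25 CPM in KO cells and 263 ± 1.49 CPM in WT cells (SD, n = 3 each; log2 fold change -0.44; edgeR adjusted p = 1.4e-05). The SOCS family members Socs7 (log2 fold change -0.54; adjusted p = 1.9e-05) and Socs6 (log2 fold change -0.31; adjusted p = 0.000806) fell as well. Jak2, the kinase bound to GHR, had a log2 fold change of only -0.10 (adjusted p = 0.26, not called).

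Of 16 further genes of the IGF system, 12 passed the filter, 2 rose and 4 fell (median log2 fold change -0.24). Igf2r, which takes IGF2 into lysosomes, averaged 227 ± 19.2 CPM in KO cells and 154 ± 15.2 CPM in WT cells (log2 fold change 0.56; adjusted p = 0.00016). Grb10, an adaptor that dampens insulin and IGF1 receptor signalling, averaged 50.03 ± 6.30 CPM in KO cells and 82.2 ± 8.38 CPM in WT cells (log2 fold change -0.72; adjusted p = 0.000403). Irs1, a docking protein of those receptors, fell by 1.16 on the log2 scale (adjusted p = 0.0022), at a low level of 1.71 CPM in KO and 3.83 CPM in WT.

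Among the sex-biased targets of growth hormone in mouse liver, both the male-biased and the female-biased list held genes that rose and genes that fell. Of 18 genes higher in male liver, 11 passed the filter, 3 rose and 6 fell in KO (median log2 fold change -0.39). Mup3, a major urinary protein, averaged 29.7 ± 3.78 CPM in KO cells and 555 ± 83.5 CPM in WT cells (log2 fold change -4.23; adjusted p = 6.51e-10). Mup20 and Cyp2d9 fell by 2.18 and 1.63 on the log2 scale, at low levels. Mup20 averaged 1.18 CPM in KO and 5.34 CPM in WT, and Cyp2d9 0.703 and 2.20 CPM. Of 18 genes higher in female liver, 16 passed the filter, 5 rose and 9 fell (median log2 fold change -0.77). Cyp2b13 averaged 0.285 ± 0.151 CPM in KO cells and 14.3 ± 1.013 CPM in WT cells (log2 fold change -5.61; adjusted p = 1.5e-09), and Cyp3a44 fell by 4.04 on the log2 scale. Hao2, a peroxisomal hydroxyacid oxidase, had 2 counts over the KO libraries and 190 over the WT libraries, a ratio of WT over KO of 95.3 with a 95% counting interval of 26.0 to 793. That interval pools the libraries and leaves out the spread between them, so it may be too narrow. Mup and Cyp genes have near-identical paralogs among which the authors' counting could divide reads, so the values of single members are uncertain. The labels give no sex, so these counts cannot be set against the sex of the animals.

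Of the 8 insulin and FOXO1 targets or regulators reported here, 5 fell in KO and 3 did not pass (median log2 fold change -0.55). The pseudokinase gene Trib1 averaged 54.3 ± 1.80 CPM in KO cells and 84.8 ± 4.58 CPM in WT cells (log2 fold change -0.64; adjusted p = 2.27e-06). The transcription factor gene Foxo3 fell by 0.63 on the log2 scale (adjusted p = 5.57e-06). G6pc, the last enzyme of glucose release, averaged 0.513 ± 0.0539 CPM in KO cells and 5.94 ± 3.23 CPM in WT cells (log2 fold change -3.52; adjusted p = 3.81e-05). The medians of all 5 lists lay below the -0.0020 of all genes, and the hepatocyte markers had a median of -0.87, with 7 of 10 lower and 1 higher. Their part in the list results was not tested. In MJ041-treated cells 54.4% of all tested genes were called (26.8% higher, 27.6% lower in KO). Beside that share, 2 receptor signalling genes were higher and 5 lower in KO. For the IGF system these counts were 2 and 3, and the medians of the 2 lists were 0.06 and 0.10. The male-biased list had 2 higher and 4 lower, the female-biased list 5 and 10, and the insulin and FOXO1 list 0 and 6, with medians of -0.33, -0.94 and -0.45.

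**Figure D4:**
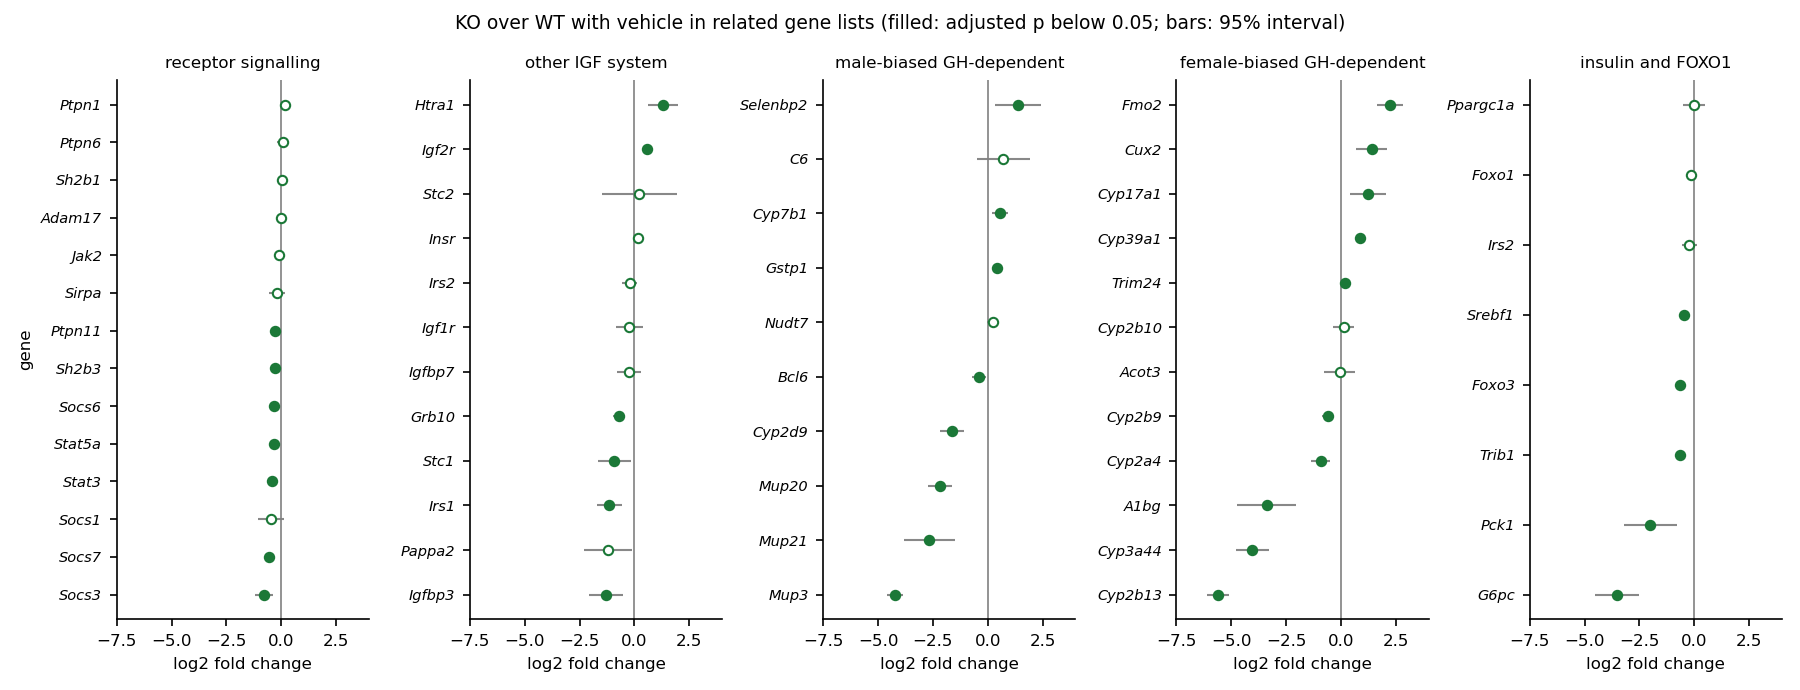
Log2 fold change of KO over WT with vehicle, with 95% intervals, for the tested genes of the 5 related lists, leaving out 5 genes with 3 or fewer counts in a group. Filled points have an adjusted p below 0.05, and both the male-biased and the female-biased lists hold genes on either side of 0.

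The genes whose pattern over the 12 libraries was most like that of Igf1, by Pearson correlation of log2 CPM among the 10197 genes that averaged 5 CPM or more, were Slc3a2, Rcn1, Ddx19b and Cnppd1 (r = 0.994 for each) and Flvcr1 (r = 0.993). Those most like Ghr were Pipox (r = 0.996), Pum2 (r = 0.995), and Ces1e, Gnai3 and Usp7 (r = 0.994 for each). These correlations describe the 12 libraries, share the genotype difference between KO and WT cells, and have no p.

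MJ041 moved 2 of the 10 genes past the threshold in WT cells, both higher and none lower, beside 2.21% of all tested genes called (1.19% higher, 1.02% lower). At an unadjusted p below 0.05, 3 of the 10 genes passed, and so did 21.6% of all tested genes. Igfbp2 had 138, 121 and 104 CPM with MJ041, against 75.6, 92.4 and 77.0 CPM with vehicle. All treated libraries were above all vehicle libraries, a 1.48-fold higher level (log2 fold change 0.57 ± 0.10; edgeR adjusted p = 0.0294). Stat5b had 77.1, 84.2 and 81.0 CPM with MJ041, against 64.2, 67.2 and 69.7 CPM with vehicle, a 1.205-fold higher level without overlap (log2 fold change 0.27 ± 0.06; adjusted p = 0.0452).

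Both calls lay near the threshold. When single libraries were left out, the Igfbp2 log2 fold change stayed between 0.46 and 0.66, but 7 of 12 fits gave an adjusted p above 0.05 (0.0508 to 0.175): those without KO MJ041 replicate 3, KO vehicle replicate 1 or 3, WT MJ041 replicate 1 or 2, or WT vehicle replicate 1 or 3. The Stat5b log2 fold change stayed between 0.22 and 0.30, and it passed only in the fit without WT MJ041 replicate 3. Over all genes the number called ran from 0 to 2059 in these fits. Adding the mean log2 CPM of 52 non-hepatocyte markers as a covariate gave Igfbp2 a log2 fold change of 0.41 (adjusted p = 0.119) and Stat5b 0.30 (adjusted p = 0.124). Without both marker-low libraries, which leaves 1 treated WT library assumed to vary like the other groups, Igfbp2 had 0.35 and Stat5b 0.27 (adjusted p = 0.981 for each). That setting was chosen after seeing the data.

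The other genes did not pass in MJ041-treated WT cells. Igfbp1 had 176, 89.5 and 89.2 CPM with MJ041 and 48.2, 92.6 and 97.8 CPM with vehicle, which overlapped (log2 fold change 0.57, 95% interval -0.12 to 1.26; adjusted p = 0.328). Igfbp4 had 121, 98.7 and 88.7 CPM with MJ041 and 75.3, 94.1 and 86.4 CPM with vehicle (log2 fold change 0.27; adjusted p = 0.155), and it passed without WT MJ041 replicate 3 (log2 fold change 0.36; adjusted p = 0.029). Igf1 had 309.7, 312 and 246 CPM with MJ041 and 287, 277 and 257 CPM with vehicle, with a log2 fold change of 0.08 and a 95% interval of -0.12 to 0.28. Its sign turned with the marker covariate (-0.10) and without the marker-low libraries (-0.15). Cish, which was lower in KO, had 54.9, 44.5 and 50.5 CPM with MJ041 and 53.3, 55.2 and 61.1 CPM with vehicle (log2 fold change -0.18; adjusted p = 0.333). The remaining log2 fold changes were -0.11 for Prlr, -0.07 for Socs2, 0.07 for Ghr and 0.32 for Igfals.

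The related lists held 0 or 1 call each for MJ041 in WT cells, beside the 2.21% called over all genes, and these calls were not recomputed under the alternatives. Of the 14 receptor signalling genes reported here 1 fell (median log2 fold change -0.11): Socs3, an inhibitor induced by cytokines, averaged 11.97 ± 3.90 CPM with MJ041 and 21.9 ± 2.49 CPM with vehicle (log2 fold change -0.87; edgeR adjusted p = 0.0417). None of the 12 tested IGF system genes passed (median -0.37), and the most abundant of them, Igf2r and Insr, had log2 fold changes of 0.36 and 0.32. Mup3 fell by 0.58 among the male-biased genes (adjusted p = 0.0497; list median -0.20) and Cyp39a1 rose by 0.48 among the female-biased genes (adjusted p = 0.0294; list median -0.14). Of the 8 insulin and FOXO1 genes reported here, Trib1 passed, averaging 68.7 ± 2.46 CPM with MJ041 and 84.8 ± 4.58 CPM with vehicle (log2 fold change -0.30; adjusted p = 0.0352; list median 0.05). The stellate, Kupffer and endothelial markers had medians of -0.43, -0.61 and -0.77 in the same comparison, with no marker called. Among the cholangiocyte markers, with a median of -0.06, the transcription factor gene Ehf was called lower (log2 fold change -1.61; adjusted p = 0.0356). Its level was low, 0.645 CPM with MJ041 and 1.99 CPM with vehicle. The markers' part in these results was not tested.

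**Figure D5:**
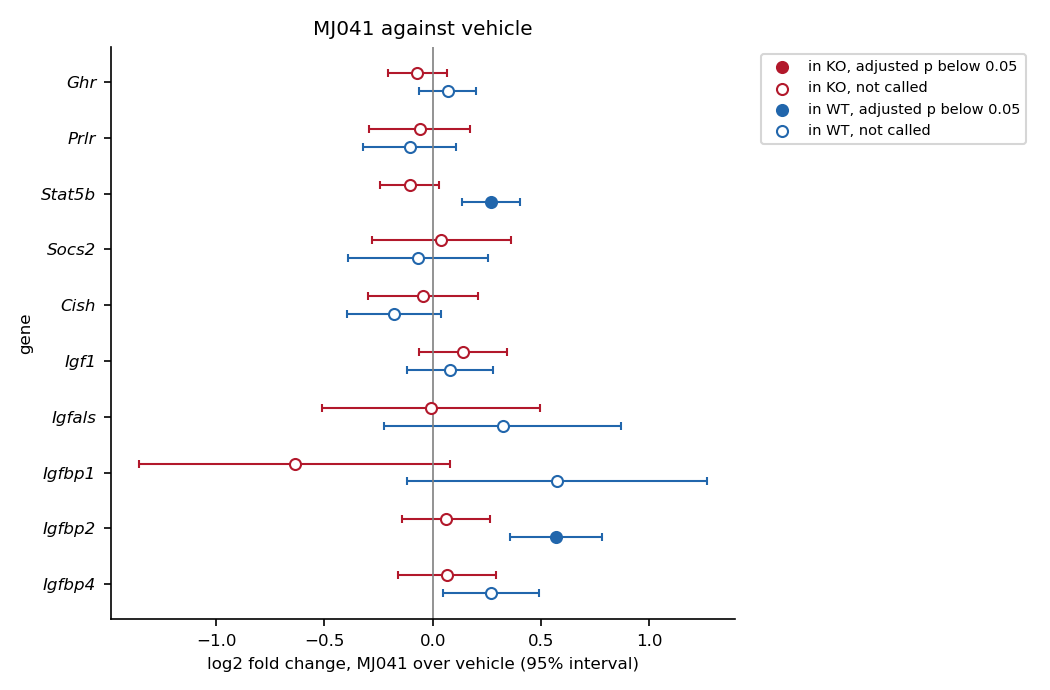
Log2 fold change of MJ041 over vehicle for each gene, with 95% intervals, in KO cells (red) and WT cells (blue). Filled points have an adjusted p below 0.05, which Igfbp2 and Stat5b reached in WT cells and no gene reached in KO cells.

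In KO cells MJ041 changed none of the 10 genes at an adjusted p below 0.05, beside 0% of all tested genes. edgeR gave 0 of the 10 at an unadjusted p below 0.05, against 2.77% of all tested genes, and DESeq2 and limma voom also called 0. With no filter on low counts Igfbp1 was called lower with MJ041 (log2 fold change -0.64; adjusted p = 0.0121). Igfbp1 had 54.7, 34.7 and 42.0 CPM with MJ041 and 45.6, 88.9 and 69.8 CPM with vehicle, with overlap, a log2 fold change of -0.64 and a 95% interval of -1.36 to 0.08. Igfbp2 had a log2 fold change of 0.06 (95% interval -0.14 to 0.26), Stat5b -0.11 and Igf1 0.14. The lists of related genes had 0 calls in KO cells.

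Whether the MJ041 response depended on genotype was tested as the difference between the response in KO cells and the response in WT cells. None of the 10 genes passed, beside 0% of all genes. At an unadjusted p below 0.05, 3 of the 10 passed, and so did 13.3% of all tested genes. These 3 differences were -0.37 ± 0.09 for Stat5b (adjusted p = 0.141), -0.51 ± 0.14 for Igfbp2 (adjusted p = 0.164) and -1.21 ± 0.46 for Igfbp1 (adjusted p = 0.274), all lower in KO. DESeq2 called Igfbp2 (adjusted p = 0.0199) and Stat5b (adjusted p = 0.0357), limma voom called 0, and edgeR called both without WT MJ041 replicate 3 (adjusted p = 0.016 and 0.0441). With no filter on low counts edgeR called all 3, Igfbp1 at an adjusted p of 4.92e-07, Igfbp2 at 0.000537 and Stat5b at 0.0222. The Igfbp1 difference itself was little changed there (-1.23), while 886 genes were called over all genes, against 0 with the filter. Why the p-values fell was not tested, and these calls are not relied on. That Igfbp2 and Stat5b passed in WT cells and not in KO cells does not by itself show that the responses differ.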

How the data were processed

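Gene counts per library were deposited by the authors as 1 table of raw counts. Per the submitters' processing notes, FastQC, Trimmomatic 0.34, STAR 2.7.10b, featureCounts and DESeq2 were used with build mm39; strand and multi-mapping settings are not given in the sources used here. Per the labels' protocols, total RNA and an Illumina stranded kit were used, with sequencing on an Element AVITI. All columns belonged to a listed library, and totals ran from 16740761 to 17902832.

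Ensembl IDs were paired with symbols for 52081 of 55414 rows. Genes passing edgeR's filterByExpr (minimum count 10) were fitted in R 4.3.3 with edgeR 4.0.16 (TMM scaling, quasi-likelihood test, 1 coefficient per group over all 12 libraries), with Benjamini-Hochberg adjustment over 14919 genes and a threshold of 0.05. The fit was tested on simulated data. CPM are TMM-scaled, and levels per kb divide by the GENCODE M21 union exon length. Libraries within a group differed by more than sampling noise (chi-square per degree of freedom 4.73 to 16.0). DESeq2 1.42.0, limma 3.58.1 voom, other scalings, filters, covariates and left-out libraries were alternatives.

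The members and lists were chosen with earlier results of these data known. All 10 members are named. Of each other list, the 3 genes with the smallest adjusted p that passed are named, or the 2 most abundant where none passed. Jak2, Igfbp7 and some cell-type markers were added after their values were seen. In the receptor signalling and the insulin lists, 1 gene each is not reported here, and the counts and medians of these lists leave it out. For Igf1 and Ghr the 5 most correlated genes with a symbol are named.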

Additional observations from a re-analysis of the deposited data

How the results depend on the processing

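The calls and log2 fold changes of the 10 genes were recomputed under DESeq2, limma voom, upper-quartile scaling, no filter on low counts, only the groups compared, a replicate block, the non-hepatocyte marker covariate, each library left out and, chosen after seeing the data, without both marker-low MJ041-treated WT libraries. Of the 10 genes, 7 were called in KO against WT with vehicle (7 to 8 when single libraries were left out) and 9 with MJ041 (10 with the marker covariate). In WT cells MJ041 called 2, against 1 with upper-quartile scaling, 4 with no filter, 0 with the marker covariate, 0 with only the WT groups, 0 without the marker-low libraries, and 0 to 3 when single libraries were left out. In KO cells it called 0, against 1 (Igfbp1) with no filter. The difference between the responses called 0, against 3 (Igfbp1, Igfbp2 and Stat5b) with no filter, 2 (Igfbp2 and Stat5b) with DESeq2, and 0 to 2 when single libraries were left out. With the replicate block the member counts were 7, 9, 2, 0 and 0, so no count changed, while 649 genes in place of 329 were called for MJ041 in WT. Same-numbered libraries correlated in their deviations at -0.0994 to 0.499, above 0.1 in 7 of 18 pairs and not in every pair. Between MJ041 and vehicle, replicates 1, 2 and 3 gave r of 0.35, 0.46 and 0.039 in KO cells. In WT cells these were -0.010, 0.20 and 0.50. Pairs across genotypes reached at most 0.16. The numbers were not taken to pair libraries, and the replicate block joined each number across all 4 groups. A block within each genotype was not fitted, so the effect of such pairing on the MJ041 tests was not tested. As a hint from the data, 9 of 12 libraries correlated best with their own number. Log2 fold changes that turned sign were all of genes not called. When single libraries were left out, Socs2 ran from -0.18 to 0.0053 in KO against WT with vehicle, from -0.13 to 0.16 with MJ041, from -0.21 to 0.0766 for MJ041 in WT, from -0.10 to 0.12 in KO and from -0.039 to 0.25 in the difference of responses. Likewise Igf1 ran from -0.0014 to 0.18 for MJ041 in WT and from -0.0432 to 0.14 in the difference, Prlr from -0.0256 to 0.16 in the difference, and Cish from -0.16 to 0.01 and Igfals from -0.27 to 0.22 for MJ041 in KO. With the marker covariate, Igf1 (-0.10) and Igfals (-0.0599) turned for MJ041 in WT, Igfals (0.0542) in KO and Igfals (0.11) in the difference. Without the marker-low libraries, Ghr (-0.0597), Igf1 (-0.15) and Igfals (-0.0278) turned for MJ041 in WT, and Igfals (0.0172) and Igfbp4 (0.0039) in the difference. The cause was not tested. The difference between the responses uses all 4 groups, so it had no fit on only the groups compared, and the genes of the related lists, the Igfbp shares and the correlations were not recomputed. Over all genes, MJ041 in WT called 329, against 276 with upper-quartile scaling, 402 with limma voom, 894 with DESeq2, 1667 with no filter and 0 with the marker covariate, with only the WT groups or without the marker-low libraries. MJ041 in KO called 0, against 1 with DESeq2 and 15 with no filter, and the difference called 0, against 211 with DESeq2 and 886 with no filter. Each of the 10 genes had at least 134 counts in every library.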
